A study of Mus musculus with 26 samples.

Results

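The Fgf5 locus of mouse pluripotent cells was described from ATAC-seq peaks, stretches of accessible DNA that the Tn5 transposase cuts more often than the DNA around them. The locus was the GRCm38 span of Fgf5 on chromosome 5, from 98254184 to 98277033 on the plus strand, with 80 kb added on each side (98174184 to 98357033). Of 451563 peaks in 26 deposited lists, 122 overlapped this window. Merging overlapping or touching peaks of all lists gave 75600 regions, of which 11 lay in the window. Among these, 7 had a peak in at least 6 lists and are described one by one, and 4 had a peak in fewer.

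Fgf5 encodes a secreted fibroblast growth factor (FGF). FGF ligands bind receptor tyrosine kinases and signal through the ERK kinase cascade, which in pluripotent cells promotes the passage from the naive state of the early epiblast to the states that follow implantation. Fgf5 is little expressed in naive embryonic stem cells and strongly in the post-implantation epiblast, and is widely used as a marker of that passage. The DNA downstream of the gene is known to hold a cluster of enhancers active in epiblast-like cells.

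The first set of libraries held 6 cultures with 3 libraries each. Embryonic stem (ES) cells were kept in 2iL at passage 16. Formative stem (FS) cells, proposed to hold a stage between naive and primed pluripotency, were kept in A3XR at passage 21 (FS1) and 29 (FS2). Epiblast stem cells (EpiSC), the primed type, were kept in AF at passage 22 (EpiSC_AF), and in AFX at passage 14 (EpiSC_AFX1) and 16 (EpiSC_AFX2). The Rd2 set held 8 libraries and was processed with other settings, its shortest peak being 110 bp against 150 bp in the first set. It comprised 2 libraries of ES cells labelled Rd2GFP in 2iL at passage 33 (Rd2_ES), 4 of the GFP-low fraction of epiblast-like cells induced from ES cells for 2 days in AF with KSR (Rd2_EpiLC), and 2 of EpiSC in AFX at passage 16 (Rd2_AFX). The labels name no gene deletion, and they do not say whether libraries of a group came from separate cultures, so p-values measure the spread between these libraries, which may be technical.

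Read depth was unknown, and list length stood in for it. The ES lists held 8044 to 10961 peaks, FS2 11796 to 14147, FS1 23883 to 31263, and the EpiSC lists of the first set 15505 to 29575. FS2 therefore stood apart from FS1 although both are FS cells. The Rd2_ES lists, with 471 and 2576 peaks, were too short to say much about a single locus. As a check of identity, peaks at or within 1 kb of either end of marker genes were counted. Of 10 naive genes, Zfp42, also called Rex1, had one in 3 of 3 ES and 0 of 6 FS lists, but Tfcp2l1 went the other way, with 0 of 3 and 5 of 6. As deposited, Tbx3, Klf2, Klf4 and Klf5 had peaks in both ES and FS lists, though Tbx3 and Klf4 in only 1 of 3 FS2 lists each. At 8044 peaks Tbx3 had one in 3 of 3 ES lists and in no FS or first-set EpiSC list. Esrrb, Nr5a2, Dppa3 and Prdm14 had none in any ES or FS list. Of 8 formative genes, Tcf15 was marked by 6 of 6 FS lists and 0 of 3 ES lists as deposited, yet at 8044 peaks per list in 3 of 3 FS1 and 0 of 3 FS2 lists. As deposited, Dnmt3b had one in 3 of 3 FS1, 2 of 3 FS2 and 0 of 3 ES lists, but in 0 of 3 FS2 lists at 8044 peaks. Pou3f1 had one in 3 of 3 FS1, 3 of 3 FS2 and 1 of 3 ES lists as deposited. Dnmt3a had none in any list, and Otx2, Lef1, Sox3 and Zic2 had none in FS2. In FS1 as deposited, Lef1 and Zic2 had one in 3 of 3 lists, Sox3 in 2 and Otx2 in 1. At 8044 peaks Otx2, Lef1, Sox3 and Zic2 had none in FS1, while Zic2 had one in 1 of 3 ES lists. Every first-set EpiSC list as deposited had one at 6 of the 8 formative genes, against 5 to 7 in FS1 and 2 to 3 in FS2 lists. The number of formative genes thus did not part FS1 from EpiSC. Of 7 primed genes, 0 to 1 had one in ES, 2 to 5 in FS1 and 1 in FS2 lists as deposited. EpiSC lists of the first set had 3 to 5. At 8044 peaks the range was 0 to 2 in EpiSC_AF and 0 to 1 in the other cultures. Of 2 neural genes, 0 to 1 had one in ES, 1 to 2 in FS1 and EpiSC and 0 in FS2 lists as deposited. The markers thus separated the labelled types only in part. Of 6 fibroblast genes, markers of feeder cells, the number with such a peak moved with list length: 0 in ES, 3 to 4 in FS1, 1 to 2 in FS2 and 2 to 4 in EpiSC lists of the first set, with Col3a1 and Prrx1 at 0 in every list. The part of feeder cells in the results was not tested.

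The 250 bases before the Fgf5 start are shown because a peak at the start set most FS1 and EpiSC lists apart from the ES lists. They span chr5:98253934-98254183 on the plus strand (RefSeq, GRCm38.p6). Capitals mark the 118 bases that were covered by the start peak in all 13 libraries having one.
Fgf5 upstream sequence: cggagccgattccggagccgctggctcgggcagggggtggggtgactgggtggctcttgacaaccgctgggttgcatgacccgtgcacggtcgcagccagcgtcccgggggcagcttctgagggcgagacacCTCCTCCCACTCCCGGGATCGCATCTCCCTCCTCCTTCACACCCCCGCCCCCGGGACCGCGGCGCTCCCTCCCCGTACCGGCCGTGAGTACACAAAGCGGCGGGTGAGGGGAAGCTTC

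This sequence is rich in G and C. Its GC content was 70.8%, against a median of 55.6% over the same stretch of 21263 protein-coding genes, and it held 24 CG dinucleotides against a median of 10. A smaller share of G and C was found in 89.2% of those promoters. On both strands, the GC box GGGCGG had 1 match, 74 bases before the start and within the capitals, and 42.6% of promoters held at least 1. The SOX-type string CTTTGT had 1 match on the reverse strand, 27 bases before the start and also within the capitals, a string held by 14.9% of promoters. No match was found for the CCAAT box (CCAAT, held by 35.4%), the TATA box (TATAAA, 11.6%), the octamer (ATGCAAAT, 1.58%), the OTX string (GGATTA, 5.82%) or the E-box (CACGTG, 6.63%). The matches do not overlap each other, and a match does not show a binding site.

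At the gene start, a peak was found in all 3 FS1, all 3 EpiSC_AF, all 3 EpiSC_AFX1 and all 3 EpiSC_AFX2 lists, in 1 of 3 FS2 lists and in 0 of 3 ES lists. The merged region ran from 98253897 to 98254490, and single peaks were 164 to 554 bp wide with a median of 343 bp. All 13 peaks shared 154 bp, from 98254066 to 98254219, which straddle the start. Each peak's standing was measured by its percentile rank, the percent of peaks of its own list with a lower −log10 p. At the start this rank was 47.4, 50.4 and 50.4 in FS1, 60.5, 64.6 and 66.4 in EpiSC_AF, 56.2, 24.7 and 41.4 in EpiSC_AFX1, 33, 20.2 and 28 in EpiSC_AFX2, and 49 in FS2 replicate 3. The start peak was thus a middling peak in FS1, stood in the upper part of the EpiSC_AF lists and in the lower part of the EpiSC_AFX2 lists.

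**Figure D1:**
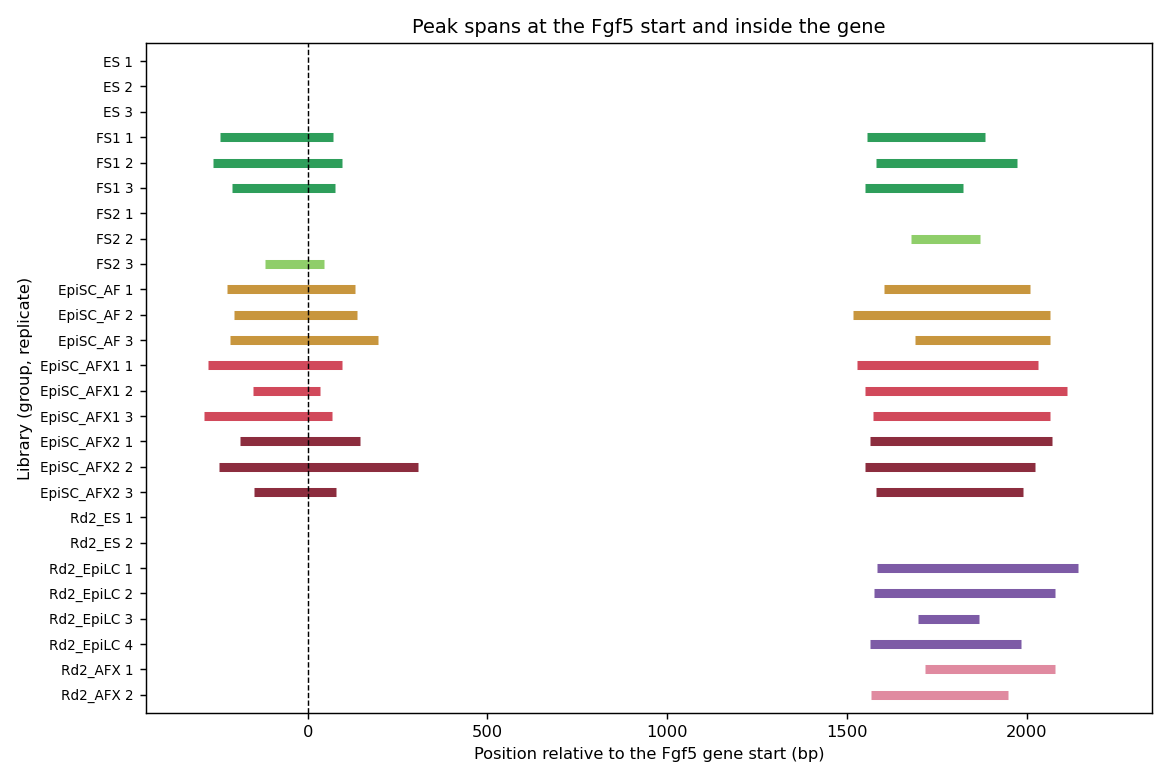
Peaks at the Fgf5 start and inside the gene. Each bar is the span of 1 peak in 1 library (rows, coloured by group), drawn by its position in bp relative to the gene start (dashed line at 0). A start peak is drawn for 13 first-set libraries and for none of the Rd2 set, whereas the peak inside the gene is drawn for 19 libraries of both sets.

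The peak inside Fgf5, centred 1.8 kb past the start, was the most prominent of the locus in most EpiSC lists. It was found in all 3 FS1, 3 EpiSC_AF, 3 EpiSC_AFX1 and 3 EpiSC_AFX2 lists, in 1 of 3 FS2 lists, in 4 of 4 Rd2_EpiLC and 2 of 2 Rd2_AFX lists, and in no ES list of either set. Its merged region was 98255701 to 98256328, with 108 bp (98255901 to 98256008) shared by all 19 peaks. The gene table gives spans only, so exon and intron were not told apart here. Percentile ranks were 58.6, 55.8 and 57.8 in FS1, 65.9, 75.8 and 57.9 in EpiSC_AF, 78.6, 44.1 and 78.1 in EpiSC_AFX1, and 79.2, 84.4 and 89.1 in EpiSC_AFX2. They were 61.1, 92.7, 63.6 and 78.6 in Rd2_EpiLC, 81.9 and 75.9 in Rd2_AFX, and 49.4 in FS2 replicate 2. It was the highest-ranked region of the window in 11 of the 15 EpiSC, Rd2_EpiLC and Rd2_AFX lists and in none of the FS lists.

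The start peak and the peak inside the gene did not stand in a fixed relation. The inner peak ranked higher in 11 of the 12 lists that held both, with EpiSC_AF replicate 3 the exception. The gap between their percentile ranks was 5.4 to 11.2 points in FS1 and −8.5 to 11.2 in EpiSC_AF. It was 19.4 to 36.7 in EpiSC_AFX1 and 46.2 to 64.2 in EpiSC_AFX2. By position within the list, the inner peak was number 2834 to 5326 and the start peak number 17191 to 23608 in EpiSC_AFX2, against 10547 to 13204 and 11840 to 15510 in FS1, whose lists are of similar length. The EpiSC_AFX2 gaps lay above those of every other culture. These gaps are descriptions within each list, noticed after the values were seen, and were not tested.

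In the Rd2 set the contrast between both peaks was one of presence. The inner peak was in 6 of 6 Rd2_EpiLC and Rd2_AFX lists and the start peak in 0 of 6. With each of these lists shortened to its 7469 highest-ranked peaks, the length of the shortest, the inner peak was kept in 6 of 6. The start peak, absent from the full lists, could not appear in shortened ones, so its count is no second check. Over the genome, 2466 regions (3.26%) had a peak in all 12 FS1 and EpiSC lists of the first set and in no ES list of either set. Of these, 157 (6.37%) had no peak in any of the 6 Rd2_EpiLC and Rd2_AFX lists, as at the Fgf5 start, and 376 (15.2%) had one in all 6, as inside the gene. List length differs too, with 10719 and 11252 peaks in Rd2_AFX and 7469 to 26045 in Rd2_EpiLC. Cut to 11796 peaks, EpiSC_AFX1, EpiSC_AFX2 and EpiSC_AF had the start region in 1, 0 and 3 of 3 lists. They had the inner region in 2, 3 and 3 of 3. The sets also differ in processing, so differences between cultures, list lengths and pipelines cannot be told apart.

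Downstream of the gene, the nearest region was centred 29.8 kb past the start (98283666 to 98284267), 6.63 kb beyond the gene end. By median percentile rank, 68.7, it stood highest of the regions beyond the gene. It was in 3 of 3 FS1, 2 of 3 FS2, 3 of 3 EpiSC_AF, 6 of 6 EpiSC_AFX, 2 of 4 Rd2_EpiLC and 2 of 2 Rd2_AFX lists, and in 0 of 3 ES lists. FS1 had percentile ranks of 68.1, 85.9 and 84.7, and it was the highest-ranked region in all 3 FS1 lists. In EpiSC_AF the ranks were 28, 80.4 and 83.1, in EpiSC_AFX1 78.5, 60.3 and 75.7, and in EpiSC_AFX2 65.3, 80.5 and 75.4. The FS2 peaks stood low, at 19.8 and 3.19. In the Rd2 set the ranks were 69 and 68.5 in Rd2_EpiLC, whose lists with this peak were the longest of that set, and 42.4 and 35.4 in the shorter Rd2_AFX lists. By position the order was the reverse, number 7318 and 8217 in Rd2_EpiLC against 6479 and 6929 in Rd2_AFX, and with 7469 peaks per list the region was in 1 of 4 Rd2_EpiLC and 2 of 2 Rd2_AFX lists. FS1 was thereby the reverse of EpiSC_AFX2, where the peak inside the gene outranked this one in all 3 lists.

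Further out, the regions centred at 39.0 kb (98292576 to 98293745) and 56.0 kb (98309566 to 98310838) were wider and weaker. The former was in 2 of 3 FS1, 0 of 3 FS2, 3 of 3 EpiSC_AF, 2 of 3 EpiSC_AFX1, 3 of 3 EpiSC_AFX2, 3 of 4 Rd2_EpiLC and 1 of 2 Rd2_AFX lists. Its median width was 490 bp and its percentile ranks ran from 4.44 to 69.4 with a median of 41.4. The latter was in 3 of 3 FS1, 0 of 3 FS2, 3 of 3 EpiSC_AF, 6 of 6 EpiSC_AFX, 3 of 4 Rd2_EpiLC and 1 of 2 Rd2_AFX lists, and neither was in any ES list. At 56.0 kb the median width was 614 bp, the widest of the 7 regions, and ranks ran from 3.24 to 68.4 with a median of 41.8. Within single lists, the 29.8 kb peak outranked the 39.0 kb peak in 13 of 13 lists with both, and the inner Fgf5 peak outranked the 56.0 kb peak in 16 of 16.

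**Figure D2:**
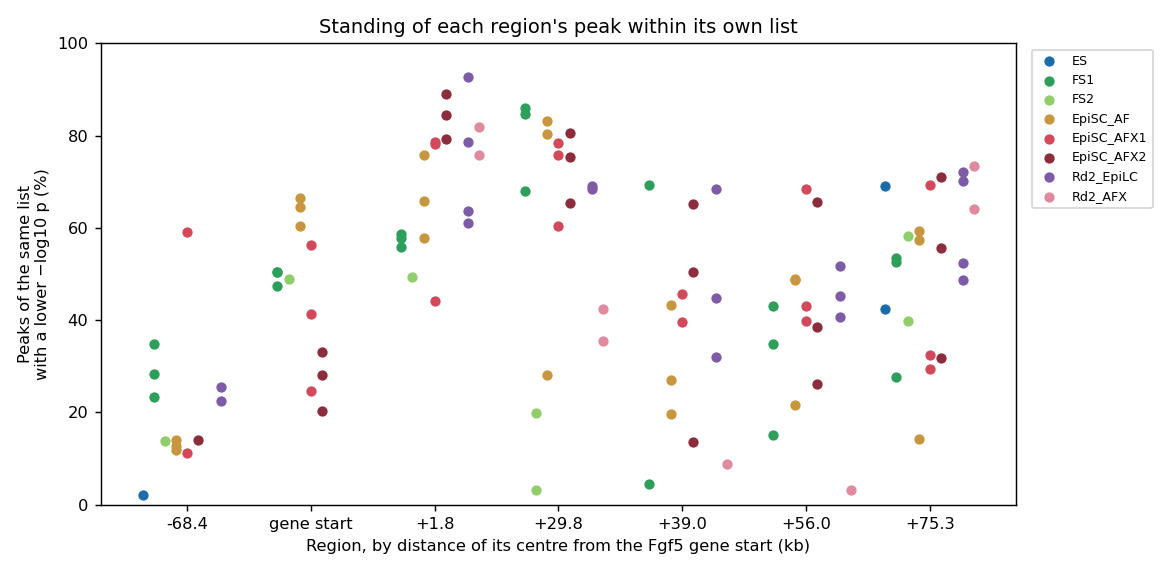
Percentile rank of the peak at each of the 7 regions present in at least 6 lists. The x axis gives the distance of the region from the gene start in kb, the y axis the percent of peaks of the same list with a lower −log10 p, and each point is 1 library coloured by group (Rd2_ES had no peak here). EpiSC_AFX2 points lie at 20.2 to 33 at the start and at 79.2 to 89.1 at 1.8 kb.

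The 2 remaining regions of the 7 lie at the neighbouring genes and were the ones found in ES lists. The region centred 75.3 kb past the start (98329153 to 98329849) is at the lower end of the span of Cfap299, a gene for a cilia and flagella associated protein. It was in 2 of 3 ES lists, with ranks of 42.4 and 69.1, and in 22 of 26 lists in all. It ranked below the 29.8 kb peak in 13 of the 17 lists with both and above it in FS2 replicate 2, Rd2_EpiLC replicate 2 and both Rd2_AFX lists, where it stood at 64.1 and 73.4. The region centred 68.4 kb before the start (98185056 to 98186482) lies within Prdm8, which encodes a transcriptional regulator of the PR domain family. It was in 1 of 3 ES, 3 of 3 FS1, 1 of 3 FS2, 3 of 3 EpiSC_AF, 3 of 6 EpiSC_AFX and 2 of 4 Rd2_EpiLC lists, and its median rank of 14 was the lowest of the 7. Every peak of ES cells in the window was thus inside a neighbouring gene, and the 5 regions at and downstream of Fgf5 held none.

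Of the 4 scarce regions, 3 were found in 1 list each. They lay 72.8 kb before the start (Rd2_AFX replicate 2), 8.1 kb before it (Rd2_EpiLC replicate 2) and 45 kb past it (FS1 replicate 3), with ranks of 37.2, 43.7 and 13.7. The fourth, centred 89.8 kb past the start inside the Cfap299 span (98343770 to 98344105), was in 3 of 3 FS1 lists and in none of the other 23. Its ranks of 57.5, 62.5 and 54.3 were in the upper part of the FS1 lists, and its 3 peaks shared 172 bp. The EpiSC_AFX2 lists, which were of similar length to those of FS1, had none there. Over the genome, 130 of 75600 regions (0.172%) had a peak in every FS1 list and no other list, and 110 did so for EpiSC_AFX2.

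**Figure D3:**
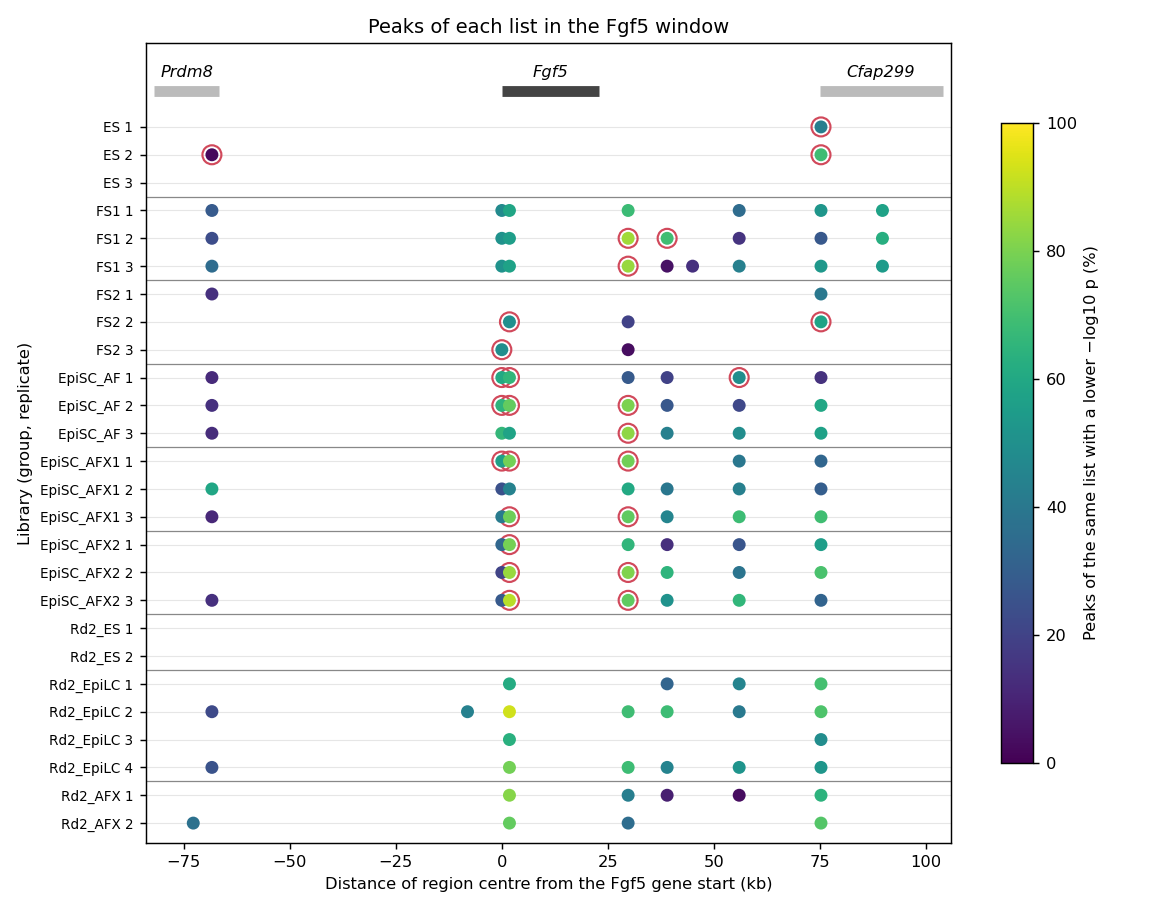
Peaks of each list in the Fgf5 window. Points mark a library (rows) with a peak in a region, placed on the x axis at the distance of the region centre from the gene start in kb and coloured by percentile rank within the list. Red rings mark first-set peaks that are among the 8044 of highest −log10 p of their list, and bars at the top are gene spans. ES rows carry points at the neighbouring genes only.

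Counted over the whole window, the number of peaks in the lists as deposited was lowest in the cultures with short lists. It was 1, 2 and 0 in ES, 7, 8 and 9 in FS1, 2, 3 and 2 in FS2, 7, 7 and 8 in EpiSC_AF, 5, 7 and 7 in EpiSC_AFX1, and 6, 6 and 7 in EpiSC_AFX2. In the Rd2 set it was 0 and 0 in Rd2_ES, 4, 7, 2 and 6 in Rd2_EpiLC, and 5 and 4 in Rd2_AFX. By mean the order was FS1 (8 ± 1, SD, n = 3), EpiSC_AF (7.33 ± 0.577), EpiSC_AFX1 and EpiSC_AFX2 (6.33 each, ± 1.15 and 0.577), FS2 (2.33 ± 0.577) and ES (1 ± 1). FS1, EpiSC_AF and both EpiSC_AFX cultures overlapped their neighbours in this order, FS2 lay wholly below them, and FS2 and ES met at 2 peaks. Per 10000 peaks of the list the means were 3.66 ± 0.736 in EpiSC_AF, 2.96 ± 0.357 in FS1, 2.88 ± 0.364 in EpiSC_AFX1, 2.35 ± 0.33 in EpiSC_AFX2, 1.83 ± 0.618 in FS2 and 1.13 ± 1.26 in ES (n = 3 each), and each culture then overlapped the next.

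The main comparisons were therefore made at equal list length, on the 8044 peaks of highest −log10 p of each first-set list, the length of the shortest. On this scale the window held 1, 2 and 0 peaks in ES, 0, 2 and 1 in FS1, 0, 2 and 1 in FS2, 3, 3 and 1 in EpiSC_AF, 3, 0 and 2 in EpiSC_AFX1, and 1, 2 and 2 in EpiSC_AFX2. All groups overlapped. ES minus FS (FS1 with FS2) was 0 (two-sided exact permutation test, adjusted p = 1 over 5 comparisons). ES minus EpiSC_AFX (both AFX cultures) was −0.667, FS minus EpiSC_AFX −0.667 and EpiSC_AF minus EpiSC_AFX 0.667 peaks, each with adjusted exact permutation p = 0.655. FS minus EpiSC_AF was −1.33 (unadjusted exact p = 0.119, adjusted p = 0.595). No difference was detectable at this length, which does not show that the cultures are alike. For 3 against 6 libraries the smallest p possible is 0.0119.

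**Figure D4:**
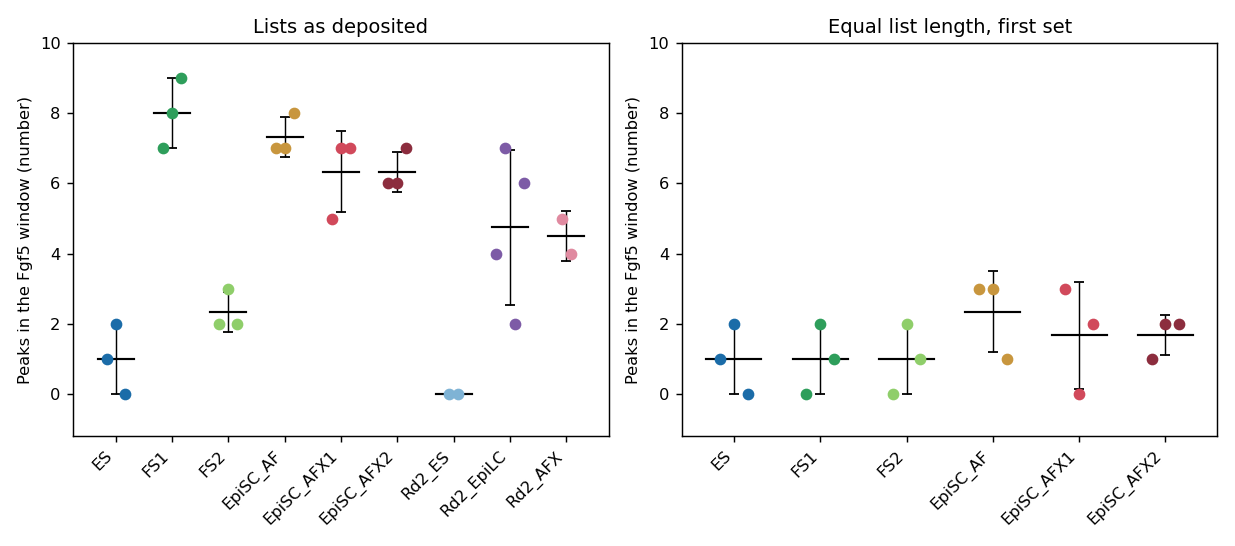
Peaks in the Fgf5 window per library. Points are libraries, horizontal lines group means and vertical bars 1 SD, for the lists as deposited (left, all 9 groups) and for first-set lists at the equal length of 8044 peaks (right). FS1 libraries lie at 7 to 9 on the left and at 0 to 2 on the right, the latter the same range as ES.

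Region by region, many of the peaks described above ranked too low in their lists to be kept at equal length. The inner Fgf5 peak was kept in 0 of 3 ES, 0 of 3 FS1, 1 of 3 FS2, 2 of 3 EpiSC_AF, 2 of 3 EpiSC_AFX1 and 3 of 3 EpiSC_AFX2 lists. The 29.8 kb peak was kept in 2 of 3 lists of each of FS1, EpiSC_AF, EpiSC_AFX1 and EpiSC_AFX2 and in none of ES or FS2. A start peak was kept in 1 FS2, 2 EpiSC_AF and 1 EpiSC_AFX1 list. The 89.8 kb peak was kept in none of the FS1 lists, where it was number 11234, 8965 and 14275. The 75.3 kb peak at Cfap299 went the other way, being kept in 2 of 3 ES lists, 1 FS2 list and no FS1 or EpiSC list. As deposited, however, it was in every FS1 and EpiSC list. The 8044 peaks are 73.4% to 100% of an ES list, but 25.7% to 33.7% of an FS1 list and 27.2% to 51.9% of a first-set EpiSC list. A peak of middling rank is therefore kept in ES and dropped in FS1. For the inner peak, 0 of 3 ES against 5 of 6 EpiSC_AFX lists gave Fisher's exact p = 0.0476, as low as in 8.17% of 20477 regions of the genome, and an adjusted p of 0.503 over them. No region of the window was held by every library of one type and none of the other in any of the 5 comparisons at equal length, and 6 or fewer regions were tested in each. Over the genome such regions were held by ES and not FS in 2.13% and by FS and not ES in 1.71% of those tested, by ES and not EpiSC_AFX in 2.75% and the reverse in 2.6%. The shares were 0.128% and 0.0535% for FS and EpiSC_AFX, 0.332% and 0.566% for FS and EpiSC_AF, and 0.284% and 0.116% for EpiSC_AF and EpiSC_AFX, the first-named type holding the region first.

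With the lists as deposited, ES and EpiSC_AFX separated. ES had 1 ± 1 (SD, n = 3) and EpiSC_AFX 6.33 ± 0.816 (n = 6) peaks in the window, giving −5.33 peaks (p = 0.0119 by exact permutation and 0.0595 after adjustment over 5 comparisons), and every ES list lay below every EpiSC_AFX list. The latter was true of 48.6% of the windows of 20761 genes. Adjusted over all those genes, p was 0.0282, as it was under 0.05 for 49.5% of them. The difference at Fgf5 was larger than the genome's median of −2.17, and 15.2% of genes had one lower still. The start, inner, 29.8 kb and 56.0 kb regions, 4 of 7 tested, were in all 6 EpiSC_AFX and no ES list, against 8.23% of 51167 regions, and the adjusted Fisher's exact p of each was 0.136. No region of the genome passed that adjustment, while 14.4% had an unadjusted p under 0.05. The ES lists are the shortest of the set, so a closed Fgf5 locus and a short list cannot be told apart here.

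The other comparisons with the deposited lists gave smaller or mixed differences. ES minus FS was −4.17 peaks (adjusted exact permutation p = 0.149), and 0 of 9 regions separated ES from FS, against 2.91% of regions held by FS only and 0.507% by ES only. FS2 lists lacked peaks that FS1 lists had. With FS1 alone, 5 of 9 regions (the start, inner, 29.8 kb, 56.0 kb and 89.8 kb regions) were in all FS1 and no ES lists, against 17.1% of regions. Against EpiSC_AF, 5 of 7 (the start, inner, 29.8 kb, 39.0 kb and 56.0 kb regions) were in all EpiSC_AF and no ES lists, against 12.5%. These comparisons of 3 with 3 libraries cannot give a p under 0.1, and their regions were not tested. The window count of ES minus FS1 alone, among the alternatives at the end, was −7 peaks (unadjusted exact permutation p = 0.1, the smallest possible). FS minus EpiSC_AFX was −1.17 (adjusted exact permutation p = 0.472), FS minus EpiSC_AF −2.17 (adjusted p = 0.472) and EpiSC_AF minus EpiSC_AFX 1 (adjusted p = 0.417).

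Between FS1 and FS2 as deposited, 2 of 9 regions (56.0 kb and 89.8 kb) were in all FS1 and no FS2 lists, against 7.38% of regions. Between FS1 and EpiSC_AFX only the 89.8 kb region was so held, 1 of 9 against 0.648%. Leaving the ES lists aside allowed a longer equal length, 11796 peaks. At that length the window held 3, 4 and 1 peaks in FS1, 1, 3 and 1 in FS2, 4, 4 and 4 in EpiSC_AF, 4, 2 and 4 in EpiSC_AFX1, and 3, 4 and 3 in EpiSC_AFX2. The 29.8 kb region was then in 3 of 3 FS1, 1 of 3 FS2, 3 of 3 EpiSC_AF and 6 of 6 EpiSC_AFX lists, and the start region in 3 of 3 EpiSC_AF, 1 of 6 EpiSC_AFX, 1 of 3 FS2 and 0 of 3 FS1 lists. FS minus EpiSC_AF was −1.83 (exact permutation p = 0.0595, adjusted p = 0.179 over the 3 comparisons without ES). The 89.8 kb region, kept in 0 of 3 FS1 lists at 8044 peaks, was in 2 of 3 at this length. The inner Fgf5 region likewise went from 0 of 3 to 2 of 3 FS1 lists. It was in 1 of 3 FS2, 3 of 3 EpiSC_AF, 2 of 3 EpiSC_AFX1 and 3 of 3 EpiSC_AFX2 lists.

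Restricted to peaks outside the spans of Prdm8 and Cfap299, ES lists held 0, 0 and 0 peaks at either length. At equal length FS1 held 0, 2 and 1, FS2 0, 1 and 1, EpiSC_AF 3, 3 and 1, EpiSC_AFX1 3, 0 and 2, and EpiSC_AFX2 1, 2 and 2. These spans were set aside after the ES peaks had been seen to lie in them, which leaves ES at 0 by construction, so the counts are a description. Their permutation p-values are among the alternatives summarised at the end and are not read as tests. In the Rd2 set, Rd2_EpiLC minus Rd2_AFX over the whole window was 0.25 peaks (exact permutation p = 1), where 0.0667 is the smallest p possible.

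The same count was made for 15 other genes of the FGF pathway, each in its own span with 80 kb on each side. At equal length, no gene separated ES from FS, ES from EpiSC_AFX or FS from EpiSC_AFX, in either direction. Over all gene windows, every ES library lay below every FS library in 6.62% and above in 2.57%, every ES library below every EpiSC_AFX library in 8.32% and above in 3.1%, and every FS library below every EpiSC_AFX library in 0.0889% and above in 0.2%. The median differences were −0.333, −0.5 and 0 peaks against −0.167, −0.167 and 0 over all genes. As deposited, every ES list lay below every FS list for 2 of 15 genes, against 22.3% of all genes, and below every EpiSC_AFX list for 13 of 15, against the 48.6% given above. The median differences were then −2.83 for ES minus FS and −4 for ES minus EpiSC_AFX, against −1.67 and −2.17 over all genes. No gene of the list separated FS from EpiSC_AFX, where 0.0958% of genes had every FS list below and 0.0192% every FS list above.

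Among the ligands, peak numbers as deposited ran from 1 to 2 in ES and 5 to 10 in EpiSC_AFX for Fgf3, and from 1 to 2 and 7 to 14 for Fgf4, the main autocrine ligand of ES cells. Fgf15 had 2 in each ES list and 7 to 14 in EpiSC_AFX, but its window and those of Fgf3 and Fgf4 share peaks, as the genes are neighbours. Fgf8, a ligand of gastrulation, had 2 to 3 and 5 to 9, and the related Fgf17 had 1 to 2 and 5 to 7. The receptors gave 0 to 3 and 5 to 8 for Fgfr1, and 2 to 3 and 5 to 8 for Fgfr3. Fgfr2, with 0 to 1 in ES, 2 to 5 in FS and 3 to 7 in EpiSC_AFX, and Fgfr4, with 1 to 2, 4 to 9 and 5 in each list, were the 2 genes separating ES from FS. Their ES minus FS adjusted exact permutation p was 0.118 over all genes.

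Of the ERK targets, the phosphatase gene Dusp6 had 0 to 1 peaks in ES and 2 to 5 in EpiSC_AFX. The feedback inhibitor genes had 2 against 3 to 8 (Spry2) and 0 against 2 to 6 (Spry4). The ETS factor gene Etv5 had 1 to 3 against 4 to 6, whereas for Etv4 and the immediate early gene Egr1 the groups met at 3. At the nearest genes beyond the window, Antxr2, 223 kb from Fgf5, had 1 peak in each ES list and 2 to 5 in EpiSC_AFX, while Bmp3, 577 kb away, had 0 to 1 and 0 to 2.

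Genes with the most similar peak numbers over the 18 first-set libraries at equal length were Slc8b1 (Pearson r = 0.70), Specc1l, Cisd2, Ube2d3 and Manba (r = 0.69 each), among 12011 genes compared. Cisd2, Ube2d3 and Manba are neighbours on chromosome 3 and share peaks. The libraries fall into groups and the counts are small, so r is given as a description. Slc8b1 had means of 4.67 peaks in EpiSC_AF and 2 in ES, in the same order as the Fgf5 means of 2.33 and 1. The FS cultures differed: Slc8b1 had means of 3 in FS1 and 3.33 in FS2, above ES, whereas Fgf5 had 1 in each, as in ES.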

How the data were processed

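Peaks of 26 ATAC-seq libraries were analysed. Per the labels' protocols each library used 50000 cells and Nextera Tn5. The submitters' processing notes name Trim Galore, Bowtie, Picard, MACS2 and mm10 (GRCm38), without versions, roles or order. The authors deposited 1 broadPeak list per library, so peaks were called per sample. The deposited fold (ratio), −log10 p, −log10 q and score describe a peak inside 1 list only; −log10 p ranked peaks, fold and −log10 q served as alternatives, and the score was not used.

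Regions were merged over all lists, with 1 bp as presence. Groups followed the source labels. Differences in mean peak number were tested by two-sided exact permutation of libraries (84 or 924 assignments) and presence by Fisher's exact test, with Benjamini-Hochberg adjustment over 5 comparisons, all gene windows or all regions, at a threshold of 0.05. The permutation test was checked on simulated data. Regions in at least 6 lists were described singly. FGF genes were named where ES did not overlap FS or EpiSC_AFX, with 5 genes most like Fgf5. The members and lists were chosen with earlier results of these data known. Within a group, at most 0.0746% of peaks were identical between libraries. Alternatives were other list lengths, rankings, thresholds, windows, overlaps and left-out libraries. Python 3.11.15, numpy 2.4.6, pandas 2.3.3, scipy 1.17.1 and matplotlib 3.10.9 were used. Gene spans and the promoter came from RefSeq GRCm38.p6.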

Additional observations from a re-analysis of the deposited data

Results flagged for a closer look

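In 37 groups of at least 4 values within a cell type, a value far from the rest was searched for. The values were widths and percentile ranks at the 7 regions, and peak numbers and covered base pairs of the window. Of such outlying values 4 were found, all of them widths or percentile ranks, where chance alone gives about 5% of groups. EpiSC_AFX1 replicate 2 had a percentile rank of 44.1 at the peak inside Fgf5, against 78.1 to 89.1 in the other EpiSC_AFX lists. The same library had a peak of 1239 bp at 56.0 kb past the gene start, against 595 to 832 bp in the others. EpiSC_AFX1 replicate 3 had a peak of 1056 bp at 39.0 kb, against 434 to 572 bp. FS2 replicate 1 had a peak of 567 bp at the Prdm8 region, against 150 to 182 bp in FS1.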

How the results depend on the processing

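Adjusted over the comparisons made together, no alternative brought a difference in window peaks past the threshold: the lowest such exact permutation p over 102 alternatives was 0.0595. It was reached by ES against EpiSC_AFX with the lists as deposited, at an unadjusted exact permutation p of 0.0119. For 3 against 6 libraries no smaller p is possible, so 1 such comparison alone could not pass after adjustment over 5. The alternatives include the counts outside Prdm8 and Cfap299, where ES is at 0 by construction. Adjusted instead over all gene windows, ES against EpiSC_AFX with the lists as deposited passed (exact permutation p = 0.0282 after adjustment), as did 49.5% of genes. The direction turned in 3 of the 102 alternatives. EpiSC_AF minus EpiSC_AFX was −0.833 when only peaks with −log10 q ≥ 5 counted. With FS1 alone and lists as deposited, FS minus EpiSC_AFX was 1.67 and FS minus EpiSC_AF 0.667, both alternatives chosen after seeing the data. ES minus FS was 0 in the main comparison and had no direction to turn, so its alternatives could not count. In peaks they ran from −7 with FS1 alone and lists as deposited to 0.5 without ES replicate 3. Separated regions numbered 0 in each comparison at equal length. As deposited they were 4 for ES against EpiSC_AFX, and with FS1 alone 5 for ES against FS, 1 for FS against EpiSC_AFX and 1 for FS against EpiSC_AF. The cause was not tested.

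Leaving out a library gave −0.5 to 0.5 for ES minus FS, −1.17 to −0.167 for ES minus EpiSC_AFX, −1 to −0.4 for FS minus EpiSC_AFX, −2 to −1 for FS minus EpiSC_AF and 0.333 to 1.33 for EpiSC_AF minus EpiSC_AFX. Separated regions of ES against EpiSC_AFX ranged from 0 to 1: without ES replicate 3 the 75.3 kb region, and without EpiSC_AFX1 replicate 2 the inner Fgf5 region.

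With the replicate number as a block, adjusted exact permutation p-values were 1 for ES minus FS, 0.556 for FS minus EpiSC_AF and 0.741 for the other 3, and no call changed. For 3 against 6 libraries the smallest p possible with blocks is 0.037 before adjustment, so 1 such comparison alone could not pass. Deviations of same-numbered libraries correlated at −0.06 to 0.05 over 45 pairs, so the numbers do not pair them. Peak lists without reads limit every value to presence and rank.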
